A study of Mus musculus with 11 samples.

Results

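The matrix proteases and their inhibitors examined here were 10 genes: the matrix metalloproteinases *Mmp2*, *Mmp3*, *Mmp7*, *Mmp9* and *Mmp14*, the tissue inhibitors of metalloproteinases *Timp1*, *Timp2* and *Timp3*, and the ADAMTS proteases *Adamts1* and *Adamts5*. They were chosen by symbol, and all 10 were found once among the 28692 genes of the count tables. The data were unique molecular identifier (UMI) counts from droplet-based single-cell sequencing of mouse kidneys, in 11 libraries from male C57Bl/6 mice. The age given is 10 weeks, which for the injured mice was the age at operation. The 5 control libraries (Ctrl, N1, N2, AN1 and AN2, prepared in 3 batches) came from naive mice, the 3 UIR libraries (UIR, UIR1 and UIR2) from kidneys with unilateral ischemia/reperfusion, in which the left renal pedicle was clamped for 30 minutes, and the 3 UUO libraries (UUO, UUO1 and UUO2) from kidneys with irreversible ligation of the left ureter. Injured kidneys were taken on day 28, and all cells were released with a cold active protease. The clamp was released in UIR, whereas the obstruction of UUO was still in place when the kidneys were taken.

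Matrix metalloproteinases are zinc-dependent enzymes that cut collagens, laminins, fibronectin and many cell surface proteins. Most are secreted as inactive precursors, while MMP14 is anchored in the plasma membrane and activates pro-MMP2 there, together with TIMP2. The TIMPs bind the active site of these enzymes, and TIMP3, which itself attaches to the matrix, also inhibits ADAMTS proteases. ADAMTS1 and ADAMTS5 cleave the proteoglycans versican and aggrecan. In the kidney these genes are known for turnover of basement membranes and interstitial matrix, and *Timp1* and *Mmp7* are widely used readouts of renal fibrosis.

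The stretch just upstream of the *Mmp3* and *Mmp7* start sites is printed because these were the only members whose promoter window held the palindromic motif TGANTCA, the binding letters of AP-1 factors. Both are from RefSeq windows on build GRCm38.p6, 5′ to 3′ on the plus strand, in the order named and at chr9:7445702-7445821 and chr9:7691970-7692089, with the match in capitals.
Mmp3: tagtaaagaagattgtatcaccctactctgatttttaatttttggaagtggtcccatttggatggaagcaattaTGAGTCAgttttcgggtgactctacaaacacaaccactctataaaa
Mmp7: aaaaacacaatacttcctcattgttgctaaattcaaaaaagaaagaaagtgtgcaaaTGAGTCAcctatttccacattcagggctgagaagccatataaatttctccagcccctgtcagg
The match began 46 bases before the *Mmp3* start and 63 bases before the *Mmp7* start. Searched on both strands in the 250 bases before each start, the motif was in 2 of the 8 windows of the 7 members that have one, and in 2217 of all 32851 windows (6.75%). *Mmp2*, *Mmp9* and *Adamts5* have no window in the table. The match is a description of letters and not a measured site.

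Some members are neighbours in the genome (coordinates from the GRCm38 GENCODE annotation). *Mmp3* (chromosome 9, 7445822 to 7455975, plus strand) and *Mmp7* (chromosome 9, 7692090 to 7699585, plus strand) lie 236114 bases apart. *Adamts1* (chromosome 16, 85793827 to 85803113, minus strand) and *Adamts5* (chromosome 16, 85856173 to 85901828, minus strand) lie 53059 bases apart. *Timp3* (chromosome 10, 86300372 to 86349506, plus strand) sits inside *Syn3*, *Timp1* inside *Syn1*, and *Mmp7* overlaps the antisense gene AV064505, each on the opposite strand. *Mmp2* is on chromosome 8, *Mmp9* on chromosome 2, *Mmp14* on chromosome 14 and *Timp2* on chromosome 11.

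Libraries held between 49503312 and 117043590 UMIs, of which between 10927519 and 41392263 were in the 40474 cells kept (1858 to 7441 cells a library, median 2522 to 5175.5 UMIs a cell). Pairs of libraries shared between 0 and 18 cell barcodes, at most 0.328%. Cells were clustered without the members and named from fixed markers into 18 classes, each of whose markers were highest in their own class except *Kcnj1*, *Actg2*, *Notch3*, *Rgs5*, *Flt3* and *Ccr7*. UMIs were then summed per library and class into pools of at least 20 cells, and levels are given as CPM (UMIs of the gene per 1e+06 UMIs of the pool), in the order Ctrl, N1, N2, AN1, AN2 for control, UIR, UIR1, UIR2 for UIR, and UUO, UUO1, UUO2 for UUO. Control kidneys gave no pool of Fibro 1 (secretory, 5 cells), Fibro 2 (contractile, 15 cells) or neutrophils (2 cells). They also gave none of monocytes (6 cells), conventional dendritic cells cDC1 (13 cells) and cDC2 (16 cells) or B cells (10 cells). These classes are compared between injuries only or described. Fibro 3 and failed repair tubular cells had control pools in 3 libraries each. The study's methods give 3 mice per injury model and 5 naive mice, as many as the libraries of each group, but the labels do not tie a library to a mouse. All intervals and floors cover counting error only.

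In control kidneys *Timp3*, *Adamts1* and *Adamts5* each lay mostly in a single class, and after injury their division was another one. Control *Timp2* was spread more widely, with 984 UMIs in podocyte pools, 434 in principal cells, 415 in stroma and 365 in macrophages. PT cells held 74.3% of all *Timp3* UMIs in control kidneys, 14.6% in UIR, and endothelial cells held 47.8% in UUO. For *Adamts1* the share in PT cells was 58.5% in control kidneys, while loop of Henle cells held 45.6% in UIR and 45.9% in UUO. *Adamts5* went from 89.4% in Fibro 3 (migratory) cells in control kidneys to 31.6% in failed repair tubular cells (frTECs) in UIR, with Fibro 3 at 28.7% in UUO. These shares follow the number of cells of each class that were captured and kept as well as the RNA per cell, and the 2 cannot be told apart in a share. The mitochondrial limit of 30% removed unequal parts of the called barcodes. It took 3578 of 6279 (Ctrl) to 7869 of 10009 (AN2) in control libraries and 1337 of 5680 (UIR) to 4701 of 12768 (UIR1) in UIR. In UUO it took 152 of 4826 (UUO) to 346 of 4501 (UUO2). All cell numbers and comparisons with control rest on this unequal selection. They also moved with the clustering: as means over libraries, the loop share of *Adamts1* in UUO was 45.7%, 14.4% with a mitochondrial limit of 15% and 9.24% with predicted doublets kept, and the PT share of *Timp3* in control was 75.1% and 46.0% with the 15% limit. When cells were clustered and named again, 629 of the 1710 loop cells still present at the 15% limit had no class, as had 638 of 2266 with doublets kept and 534 at the finer clustering (Leiden resolution 2). PT cells numbered 5465 in control, 1494 in UIR and 109 in UUO kidneys, and loop of Henle cells 268, 1253 and 745. *Timp1* gave 11 UMIs in all control cells, against 2722 in UIR and 1651 in UUO, and *Mmp7* gave 0 against 1314 and 1853.

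**Figure D1:**
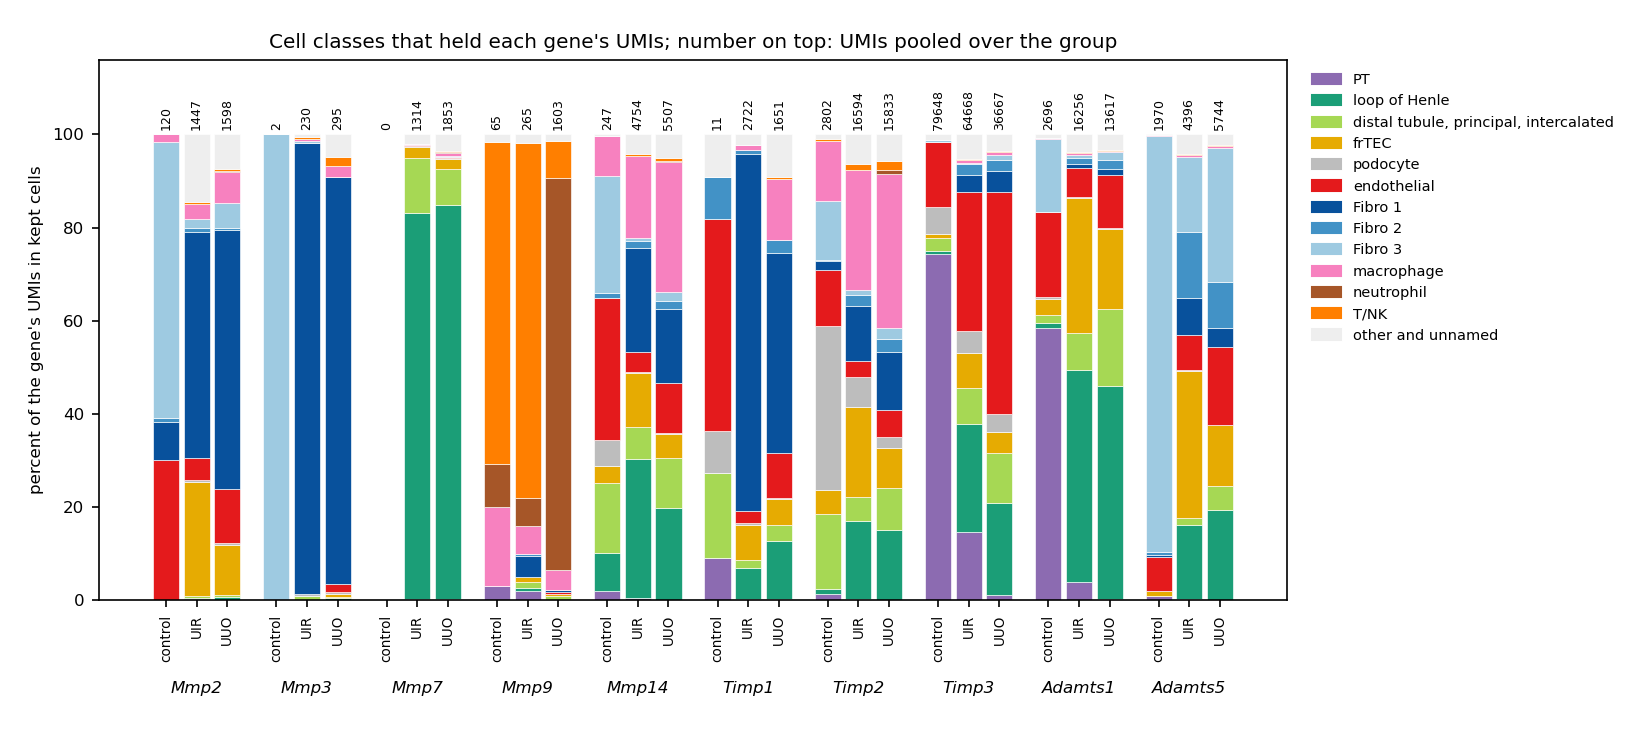
Share of each member's UMIs (percent, vertical axis) held by each cell class in control, UIR and UUO kidneys, with the pooled UMI number of the group above each bar. *Timp3* moves from 74.3% in PT cells of control kidneys to 47.8% in endothelial cells of UUO kidneys, and control bars of *Timp1* and *Mmp3* rest on 11 and 2 UMIs.

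Counted over member and class pairs, 28 of 60 tested pairs were higher in UIR than in control and 4 were lower (edgeR quasi-likelihood test, Benjamini-Hochberg adjusted p under 0.05 over all genes of the class). In UUO, 28 of 66 pairs were higher than control and 7 lower. Between the injuries, 13 of 80 pairs were higher in UUO and 1 was lower. The injured groups share the same control libraries, so the UIR and UUO counts are not separate evidence. A share of all genes over the same classes together is not given, and that share differed widely between classes. These totals are therefore not a result about the members, and the counts by class below have the share of all genes beside them.

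Distal nephron classes held most of the rises. In the loop of Henle 6 of the 7 members tested were higher in UIR, where 31.4% of all genes tested were called in either direction, and 6 were higher in UUO (36.4% of all genes called). Of these 7, *Mmp7*, *Timp1* and *Adamts5* had no UMI in the control loop and passed the low-count filter only through the injured pools. The other 4 differed from control by log2 values of 1.12 to 4.22 in UIR and 0.88 to 4.79 in UUO. The injured pools alone also carried *Mmp2* and *Timp1* in frTECs, *Mmp7* in principal cells, *Mmp14* in intercalated cells and *Timp1* in macrophages past the filter. The same held where control had 1 UMI, for *Adamts5* in the distal tubule and principal cells and *Timp1* in stroma. It also held where control had 2, for *Mmp3* in stroma and *Mmp2* and *Adamts1* in macrophages. Other pairs with low control levels were not sorted in this way. The counts below can therefore include more members admitted only by the pools where they are high. In the distal tubule 4 of 5 members were higher in UIR (33.1% of all genes called) and 5 in UUO (41.1%). Collecting duct principal cells had 3 of 6 members higher in each injury (15.5% and 33.4% of all genes called), and intercalated cells 2 of 4 in each (13.4% and 22.5%). The frTECs had 5 of 7 members higher in UIR, against 5.65% of all genes called, and 5 higher and 1 lower in UUO, against 5.91%. In PT cells 3 of 4 members were higher and 1 lower in UIR (8.09% of all genes called), and 1 was lower in UUO (2.26%), where the pools held 23, 29 and 57 cells.

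Outside the tubule, endothelial cells had 1 of 7 members higher in UIR (1.95% of all genes called), and 2 higher and 1 lower in UUO (11.8%). All stromal cells together had 3 of 8 members higher and 2 lower in each injury (17.0% and 14.7% of all genes called). Fibro 3 cells had 1 of 6 lower in UUO (2.55%). Macrophages had 1 of 7 higher in UIR (6.91%) and 2 in UUO (11.5%), and T/NK cells had 1 of 3 lower in each (0.574% and 2.54%). In podocytes neither of the 2 members tested was called in UIR (0.671% of all genes called) or UUO (3.03%) by edgeR or DESeq2, with 1 and 0 at an unadjusted p under 0.05.

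Between UUO and UIR, members were called in the loop of Henle (3 of 7, 2.38% of all genes called), the distal tubule (4 of 5, 2.67%), principal cells (3 of 6, 7.49%), endothelial cells (2 of 7, 2.48%), macrophages (1 of 7, 2.47%) and Fibro 2 (1 of 6, 0.632%). No member was called by edgeR in PT (4 tested, 0.161% of all genes called), intercalated cells (4, 0.205%), frTECs (7, 0.00981%), podocytes (2, 0.0915%), stroma (8, 0.330%), Fibro 1 (8, 0.370%), conventional dendritic cells cDC1 (3, 0.566%) and cDC2 (3, 0.296%) or T/NK cells (3, 1.73%). Of these 9 classes, PT, intercalated cells, frTECs and podocytes also had 0 at an unadjusted p under 0.05, stroma and cDC1 had 2 each, Fibro 1 and T/NK cells 3 each, and cDC2 1. DESeq2 called 1 member in Fibro 1 and 0 in the other 8 classes.

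*Mmp14*, the membrane-anchored enzyme, rose in the most classes: 8 of the 9 tested in UIR and 8 of the 10 tested in UUO. Loop of Henle pools held 4.21, 10.0, 7.86, 22.1 and 11.8 CPM in control, 52.2, 57.4 and 63.0 in UIR, with 72.1, 81.2 and 83.6 in UUO. The 3 groups did not overlap. The log2 difference from control was 2.16 ± 0.27 (SE) in UIR (edgeR adjusted p = 1.12e-07) and 2.61 ± 0.26 in UUO (edgeR adjusted p = 9.12e-10). Distal tubule pools gave the same order, with 0.539, 2.74, 2.18, 2.72 and 0.994 CPM in control, 17.2, 20.7 and 19.3 in UIR, with 38.3, 39.2 and 45.0 in UUO. There the change was 3.23 ± 0.37 and 4.25 ± 0.35 on the log2 scale (edgeR adjusted p = 9.27e-09 and 1.6e-12). UUO stood above UIR by 1.02 ± 0.22 (edgeR adjusted p = 0.00457), a call that ended when predicted doublets were kept. Cluster t3 held 2 of the 697 control distal tubule cells, 366 of 564 in UIR and 180 of 198 in UUO, so the distal difference mixes cluster share and level.

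Along the collecting duct *Mmp14* followed the same direction. Principal cell pools held 4.39, 11.8, 19.3, 10.6 and 9.46 CPM in control, 26.9, 30 and 25.6 in UIR, with 43.2, 60.5 and 86.2 in UUO. The groups were separate, with log2 differences from control of 1.38 ± 0.31 and 2.53 ± 0.28 (edgeR adjusted p = 0.00179 and 1.57e-08), and UUO above UIR by 1.15 ± 0.22 (edgeR adjusted p = 0.00095). Intercalated cells had no *Mmp14* UMI in the 5 control pools, and 18.0, 8.67 and 12.1 CPM in UIR and 14.5, 22.7 and 24.0 in UUO. Against the floor of 3 counts over the control group this was at least 6.93-fold higher in UIR and 12.4-fold higher in UUO (edgeR adjusted p = 0.000942 and 5.13e-05). Droplets without a cell also held the transcript (mean 1.03 CPM in control, 17.0 in UIR and 49.6 in UUO libraries). All intercalated pools of injured kidneys were at or below their own library's empty droplets, as were the PT pools. The estimated share of free RNA was 4.40 to 7.13% of UMIs in UIR intercalated pools and 1.51 to 2.47% in UUO ones. It was 5.95 to 10.3% in UIR PT pools. Subtracting free RNA, which could be run for 79 of the 81 called pairs, ended 4 calls, none of them of *Mmp14*. The part of free RNA in the size of these rises was not tested. The loop pools of UIR were above their empty droplets in 3 of 3 libraries and those of UUO in 2 of 3. Distal tubule pools lay within the range of the empty droplets over libraries, 11.8 to 23.6 CPM in UIR and 32.6 to 75.4 in UUO.

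PT cells carried little *Mmp14*: between 0 and 0.199 CPM in control and 2.68, 1.65 and 0.657 in UIR. The UIR values were all higher, by 3.65 ± 0.73 on the log2 scale (edgeR adjusted p = 0.00077), and in UUO the PT pools held 1, 1 and 0 UMIs, which DESeq2 called higher than control (adjusted p = 0.00048) and edgeR did not (adjusted p = 0.182). In frTECs the 3 control libraries with a pool (Ctrl, N2 and AN2, of 23, 23 and 27 cells) held 8.03, 0 and 15.6 CPM. UIR pools held 53.4, 64.6 and 65.8, and UUO pools 73.0, 101 and 61.8. Injured pools were all above control, by 2.81 ± 0.47 and 3.16 ± 0.47 (edgeR adjusted p = 0.00392 and 0.00158). Cluster t16 held 49 of the 89 control frTECs, 65 of 730 in UIR and 15 of 238 in UUO, so this difference mixes cluster share and level. The UIR mean of *Mmp14* in t16 is given below with *Adamts1*.

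Outside the tubule, macrophage *Mmp14* stood at 43.5, 7.83, 5.64, 9.05 and 12.5 CPM in control, 60.8, 74.3 and 62.0 in UIR, and 104, 87.3 and 106 in UUO, with no overlap. The log2 difference was 1.97 ± 0.30 in UIR and 2.50 ± 0.29 in UUO (edgeR adjusted p = 5.32e-05 and 2.37e-07). Different clusters made up the class: 58.2% of control macrophages were in cluster i10, 46.6% of UIR ones in i1 and 54.9% of UUO ones in i0. Within i10 the mean was 15.8 CPM in control and 77.8 in UIR, and the highest cluster mean was in i11, led by *Mmp12*, *Gpnmb* and *Arg1*, at 154 CPM in UIR and 201 in UUO. Endothelial pools held 22.0, 20.3, 15, 14.2 and 29.1 CPM in control, 24.8, 24.5 and 25.5 in UIR, which overlapped, and 48.0, 51.2 and 59.7 in UUO, which lay above both. The UUO rise was 1.31 ± 0.19 against control and 1.03 ± 0.17 against UIR (edgeR adjusted p = 3.42e-05 and 0.00109), while UIR differed from control by 0.28 ± 0.21 (edgeR adjusted p = 0.679). By endothelial cluster, as untested means, *Mmp14* was 4.41 CPM in control, 17.7 in UIR and 73.9 in UUO in cells led by *Plvap* (c9), and 18.8, 36.9 and 64.6 in *Sox17* cells (c15). In the most numerous cluster, led by *Ehd3* and *Kdr* (c8), it was 31.7, 19.4 and 35.4 CPM, and in *Ccl21a* cells (c13) 0 in the only control pool, 9.90 and 34.4.

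Stromal *Mmp14* was 98.1, 117, 86.7, 87.1 and 122 CPM in control against 264, 225 and 203 in UIR and 297, 206 and 188 in UUO, without overlap (log2 1.32 ± 0.21 and 1.27 ± 0.21, edgeR adjusted p = 0.000118 and 0.000302). Control stroma was 109 Fibro 3 cells with 5 Fibro 1 and 15 Fibro 2 cells, whereas UIR stroma was 351 Fibro 1, 403 Fibro 2 and 72 Fibro 3 cells and UUO stroma 390, 157 and 172, so a stromal difference mixes subtype and level. In Fibro 1 cells UIR pools held 448, 354 and 383 CPM and UUO pools 416, 346 and 459, which overlapped (log2 0.03 ± 0.21).

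**Figure D2:**
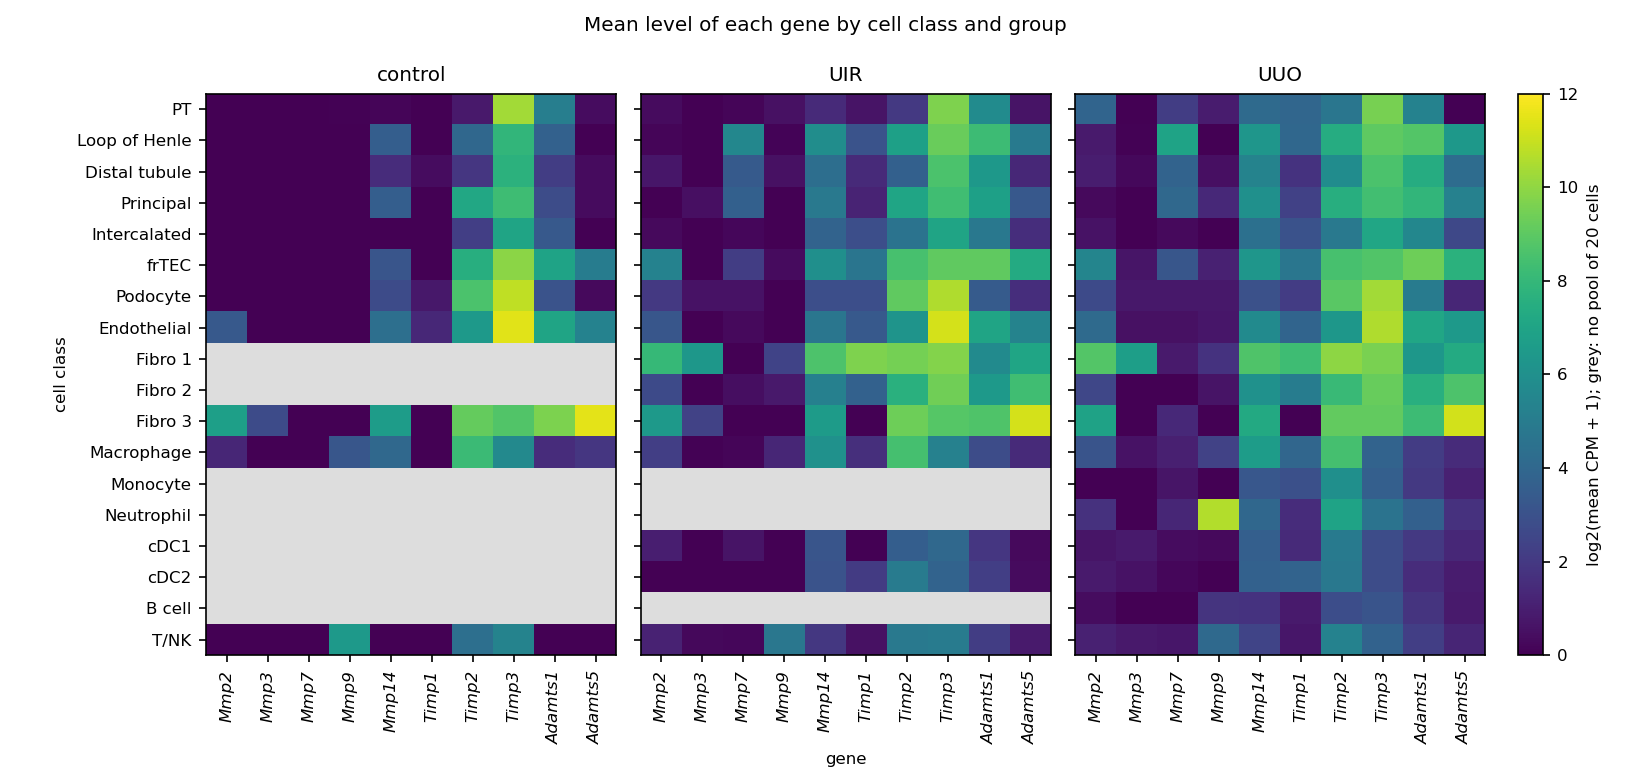
Level of each member in each cell class (mean CPM over pools, colour on a log scale) for control, UIR and UUO kidneys. *Mmp9* stands at 1571 CPM in UUO neutrophils, *Mmp7* is at 0 in every control class, and *Timp3* is present in most classes of all groups.

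*Mmp2*, a gelatinase that MMP14 activates, was a stromal gene with further sites in endothelial cells and in frTECs of injured kidneys. In *Sox17* endothelial cells (c15) the untested mean was 24.3 CPM in control, 19.2 in UIR and 60.6 in UUO. Fibro 3 cells held 103, 111 and 111 CPM in control (N1, N2 and AN1), 87.9 in the only UIR pool, and 119, 102 and 135 in UUO. These overlapped (UUO against control, log2 0.03 ± 0.29). Fibro 1 pools were higher within the injured libraries, at 239, 265 and 272 CPM in UIR and 439, 246 and 655 in UUO. Of the UUO values 1 lay within the UIR range and 2 above it (log2 0.77 ± 0.30, edgeR unadjusted p = 0.0243, not called after adjustment). In frTECs no control pool held a *Mmp2* UMI, against 33.2, 33.7 and 51.4 CPM in UIR and 30.4, 74.4 and 25.5 in UUO. That was at least 9.23-fold and 12.4-fold higher (edgeR adjusted p = 0.0307 and 0.0232), and both calls ended without control library Ctrl or AN2 and with a mitochondrial limit of 50%, the UIR call also without N2, UIR, UIR1 or UIR2. All 6 injured pools were above their empty droplets. Within frTECs the transcript sat in cluster t11, led by *Tnc*, *Ankrd1* and *Wnt16*, with 131 CPM in UIR and 118 in UUO, and stood at 0.741 and 0 CPM in cluster t5 (*Ubd*, *Havcr1*, *C3*) and 1.75 and 0 CPM in t12. Over the whole frTEC pools the summed Fibro 1 markers (5 of 6 found in each injury) ranged from 0 to 5.63 CPM in control, 48.1 to 68.8 in UIR and 58.2 to 113 in UUO. The summed Fibro 2 markers ranged from 3.91 to 180 CPM in control, 909 to 2039 in UIR and 10.9 to 2836 in UUO. Per 100 Fibro 1 marker UMIs the frTEC pools held 70.8 *Mmp2* UMIs in UIR and 56.5 in UUO. Fibro 1 pools held 2.02 and 2.43. The part of stromal RNA in the frTEC level of *Mmp2* was not tested.

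*Mmp3*, stromelysin-1, was found mostly in Fibro 1 cells, which held 97% of its 230 UMIs in UIR and 87.5% of its 295 in UUO. Fibro 1 pools had 74.9, 100.3 and 68.2 CPM in UIR and 150, 40.1 and 123 in UUO, which overlapped. Over all stroma it was 0, 8.36, 0, 7.92 and 0 CPM in control, 40.3, 59.7 and 32.6 in UIR and 93.6, 19.3 and 28.1 in UUO. Injured pools were all above the control ones, but with 2 control UMIs the UIR ratio was 14.2 (95% interval 3.90 to 118), the UUO ratio 19.2 (5.27 to 160), and edgeR adjusted p was 0.0546 and 0.0516, past the threshold in neither. DESeq2 called both (adjusted p = 0.00208 and 0.00234). Control stroma held 5 Fibro 1 cells, against 351 in UIR and 390 in UUO, so these ratios mix subtype and level.

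*Mmp7*, matrilysin, is an epithelial enzyme, and its transcript was in the loop of Henle class, which held 83.0% of its UMIs in UIR and 84.6% in UUO. Loop pools had 0 in all 5 control libraries, 9.65, 92.3 and 35.1 CPM in UIR, and 119, 73.3 and 175 in UUO. Every injured pool was above its own empty droplets, the injuries overlapped, and the level was at least 27.4-fold (UIR) and 69.1-fold (UUO) over the floor of 3 control counts. edgeR called neither (adjusted p = 0.264 and 0.115), whereas DESeq2 called both (adjusted p = 8.09e-06 and 1.42e-08). edgeR also called UUO with a mitochondrial limit of 50% (adjusted p = 0.0395) and when only UUO and control libraries were fitted (0.0294). Few cells carried it: the cell with the most held 24, 236 and 88 UMIs in the UIR libraries and 72, 84 and 130 in the UUO libraries. Cluster t19, led by *Cxcl5*, *Ccl20* and *Mmp7* itself, had 13, 18 and 24 cells in UIR, 28, 18 and 17 in UUO and none in control. It contributed 36.0%, 52.5% and 68.7% of the loop *Mmp7* UMIs in UIR and 57.0%, 68.7% and 74.5% in UUO. The loop markers were low there (*Umod* 4065 CPM in UIR and 1180 in UUO, against 14353 in the control cells of t9), and *Psca*, from the urothelial list, stood at 134 and 66.9 CPM while *Upk1b*, *Upk3a*, *Upk2* and *Krt5* together gave 1 UMI (*Upk2*, in UIR). The loop name of these cells depended on the clustering: as a mean over libraries the loop share of *Mmp7* was 76.0% in UIR and 83.9% in UUO, but 35.6% and 15.9% with a mitochondrial limit of 15% and 13.6% and 6.40% with predicted doublets kept, where cells without a class held 60.6% and 63.6%. In principal cells all 70 UMIs of UIR1 came from 1 cell, and the other UIR pools had 0. Distal tubule pools held 26.6, 0 and 1.65 CPM in UIR and 4.14, 28.9 and 5.95 in UUO.

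*Mmp9*, the other gelatinase, belonged to leukocytes. Neutrophil pools, obtained only from UUO kidneys, held 1772, 1472 and 1468 CPM (1571 ± 174, SD, n = 3) and 84.3% of the UUO UMIs. T/NK cells held 69.2% of the 65 control UMIs and 76.2% of the 265 UIR UMIs. Their pools had 102, 104, 52.1, 66.5 and 108 CPM in control, 22.6, 31.0 and 24.4 in UIR, and 19.4, 17.9 and 10.6 in UUO. Both injured groups lay wholly below control, by -1.65 ± 0.31 and -2.40 ± 0.33 on the log2 scale (edgeR adjusted p = 0.000557 and 1.28e-07). The UIR call missed the threshold without AN1 and AN2 (edgeR adjusted p = 0.0519). The class changed its make-up: cluster i14 (*Gzma*, *Xcl1*, *Klrk1*) made up 20% of the class in control, 6.32% in UIR and 8.14% in UUO, and i4 (*Cd8b1*, *Cd8a*) 18.3%, 21.6% and 29.8%. As untested means, *Mmp9* was 39.1 CPM in UIR and 39.8 in UUO in i14, 37.1 and 22.6 in i2 (*Trbc2*, *Cd3g*) and 5.31 and 1.32 in i4, and no control cluster had a pool large enough to compare. These pools rest on 45 UMIs from 115 control cells, 202 from 2026 UIR cells and 126 from 1585 UUO cells. The 5 neutrophil markers together gave 0 UMIs in the control T/NK pools, 18 in UIR and 70 in UUO. Macrophage values were 3.63, 23.5, 0, 4.53 and 9.35 CPM in control, 2.0, 2.0 and 0.366 in UIR and 2.68, 1.23 and 8.59 in UUO, which overlapped (the UIR difference was called by DESeq2, adjusted p = 0.0359, and not by edgeR, adjusted p = 0.149).

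*Adamts1* rose in the loop of Henle, the distal tubule and principal cells. It was lower in stroma, whose subtypes changed, and was not called in intercalated cells (log2 1.24 in UIR and 1.87 in UUO, edgeR adjusted p = 0.517 and 0.222). The loop of Henle held 6.31, 5.02, 2.62, 0 and 47.2 CPM in control, 243, 280 and 371 in UIR and 403, 521 and 398 in UUO. Control library AN2 stood apart from the other 4, yet every injured pool was several times higher. The log2 difference was 4.22 ± 0.52 in UIR and 4.79 ± 0.51 in UUO (edgeR adjusted p = 0.000157 and 4.25e-05). In the distal tubule control values of 2.16, 1.37, 8.72, 1.36 and 3.97 CPM compared with 62.3, 64.8 and 123 in UIR and 143, 180 and 188 in UUO. No groups overlapped, with log2 4.22 ± 0.35 and 5.19 ± 0.33 against control (edgeR adjusted p = 2.75e-08 and 4.36e-10). Of distal tubule cells, 64.9% in UIR and 90.9% in UUO were in cluster t3, which held few of the control ones, spread over t4, t10 and t14. The distal UUO excess over UIR, 0.97 ± 0.21 (edgeR adjusted p = 0.0182), was lost without UIR, UIR1, UUO1 or UUO2 and with free RNA subtracted, and turned to -0.12 with predicted doublets kept. Principal cells held 5.86, 0, 15.4, 6.62 and 1.35 CPM in control, 131, 72.6 and 136 in UIR, with 272, 226 and 210 in UUO. The groups were again separate, at 4.44 ± 0.43 and 5.50 ± 0.40 (edgeR adjusted p = 1.36e-05 and 2.07e-07). UUO exceeded UIR by 1.05 ± 0.27 (edgeR adjusted p = 0.0299), not called without Ctrl, UIR2, UUO or UUO1, with a mitochondrial limit of 50% or with predicted doublets kept.

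These classes were not made of the same clusters in each group. Of control loop cells 96% were in cluster t9 (*Egf*, *Wfdc15b*), of UIR ones 66.5% in t0 (*Slc12a1*, *Umod*), 23.8% in t2 (*Psca*, *Slurp1*) and 5.35% in t9, and of UUO ones 49.7% in t2 and 41.5% in t0. In t9, the only cluster with enough cells in both, *Adamts1* was 4.09 CPM in control and 0 in UIR and *Adamts5* was 0 in each, while *Mmp14* was 4.39 and 10.2 and *Timp2* 2.31 and 15.1. In t0 *Adamts1* was 173 CPM in UIR and 254 in UUO, and in t2 449 and 503. The urothelial marker *Psca* reached 276 CPM in UIR and 262 in UUO in t2, where *Upk3a* and *Upk2* were at 0, *Upk1b* and *Krt5* gave 1 UMI each, in UUO, and *Umod* at 4981 and 4135. Principal cells of control kidneys were in t13 (47.5%) and t18 (46.5%), those of UUO in t8 (83.0%). Within t13 *Adamts1* was 8.46 CPM in control and 43.7 in UIR.

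frTECs had 28.1, 175 and 168 CPM of *Adamts1* in control, 496, 510 and 594 in UIR, and 720, 783 and 469 in UUO. All injured pools were higher (2.13 ± 0.49 and 2.39 ± 0.49, edgeR adjusted p = 0.0406 and 0.0272). Both calls ended without AN2, UIR or UUO and with a mitochondrial limit of 50%, the UIR one also without UIR1 or UIR2, and the UUO one without UUO1. The class was made of different clusters: 55.1% of control frTECs were in t16 (*Fst*, *Aqp1*, *Lypd2*) and 5.62% in t11, whereas t5 held 45.3% and t11 24.9% of UIR ones, and t12 held 32.4% and t11 29.4% of UUO ones. In UIR cells of t16 the means were 190 CPM of *Adamts1*, 20.4 of *Adamts5*, 9.72 of *Mmp14*, 0 of *Mmp2* and 853 of *Timp3*. In PT cells *Adamts1* was 39.6, 33.7, 30.2, 32.6 and 33.7 CPM in control and 41.1, 53.5 and 68.3 in UIR, just above control (0.72 ± 0.13, edgeR adjusted p = 0.00027, lost with a mitochondrial limit of 15% or 50%), and 40.9, 34.6 and 42.1 in UUO.

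Fibro 3 showed the opposite direction. *Adamts1* was 949, 741 and 653 CPM in control (N1, N2 and AN1), 415 in the UIR pool and 250, 257 and 400 in UUO. Every injured pool was lower, by -1.46 ± 0.20 on the log2 scale in UUO (edgeR adjusted p = 7.29e-06). Over all stroma the fall was larger, from 535, 844, 740, 649 and 487 CPM in control to 113, 72.4 and 85.2 in UIR and 120, 189 and 185 in UUO (-2.73 ± 0.23 and -1.92 ± 0.22, edgeR adjusted p = 6.68e-08 and 6.05e-06). Fibro 3 cells numbered 109 in control, 72 in UIR and 172 in UUO, beside 5, 351 and 390 Fibro 1 and 15, 403 and 157 Fibro 2 cells. The stromal fall therefore mixes subtype and level. In Fibro 2 cells UUO pools (192, 243 and 141 CPM) lay above UIR pools (63.6, 90.6 and 103) by 1.07 ± 0.22 (edgeR adjusted p = 0.0224), a call lost without UIR, UIR1 or UUO1 and with a mitochondrial limit of 50%. Cluster s4 held 40.4% of UIR and 14.6% of UUO Fibro 2 cells, s2 (*Ren1*) 40.7% and 51%, and s6 18.9% and 34.4%. Within clusters the untested mean was 101 CPM in UIR and 224 in UUO in s2, 78.5 and 165 in s6, and 52.6 in the only s4 pool, a UIR one.

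*Adamts5*, the second aggrecanase, gave no UMI in the control loop of Henle. Its level was 21.5, 32.9 and 31.4 CPM in UIR and 78.2, 72.5 and 98.0 in UUO. Every UUO pool was above every UIR pool, by 1.52 ± 0.16 (edgeR adjusted p = 7.04e-07), and against the control floor the level was at least 17.6-fold and 49.2-fold higher (edgeR adjusted p = 8.08e-08 and 9.43e-12). The difference between injuries was not called with a mitochondrial limit of 15%, with predicted doublets kept or at Leiden resolution 2 (0.97 at the lowest, edgeR adjusted p up to 0.407), and the UIR call was lost at Leiden resolution 2 (edgeR adjusted p = 0.149). In the distal tubule, 0, 1.37, 0, 0 and 0 CPM in control compared with 1.35, 1.06 and 2.06 in UIR, with 19.6, 9.64 and 23.8 in UUO. The UUO values stood clear of both other groups, at 86.9 times control (95% interval 15 to 3486, from 1 control UMI, edgeR adjusted p = 1.21e-07) and 3.35 ± 0.49 above UIR on the log2 scale (edgeR adjusted p = 4.96e-05). They were nevertheless at or below the empty droplets of their libraries (mean 33.3 CPM in UUO). Principal cells had 1 control UMI, in AN1, against 5.13, 12 and 9.95 CPM in UIR and 24.1, 25.8 and 64.8 in UUO. These were 27.3 times (4.67 to 1102) and 102 times (18.2 to 4067) control, with edgeR adjusted p = 0.00583 and 2.38e-06, and UUO exceeded UIR by 1.97 ± 0.37 (edgeR adjusted p = 0.00245). The UIR call and the excess of UUO over UIR were not made without AN1, the first also not with 50 cells a pool and the second not with a mitochondrial limit of 15%.

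In frTECs *Adamts5* was 12.1, 67.6 and 15.6 CPM in control, 158, 129 and 192 in UIR, and 199.8, 278 and 127 in UUO, all injured pools above control (2.47 ± 0.51 and 2.80 ± 0.51, edgeR adjusted p = 0.0256 and 0.0134). Both calls ended without Ctrl or AN2, the UIR one also without UIR, UIR1 or UIR2, with a mitochondrial limit of 50% or with predicted doublets kept. Cluster t11 again had the highest means, 405 CPM of *Adamts5* in UIR and 478 in UUO, with *Adamts1* at 953 and 1178 and *Mmp14* at 122 and 148. Fibro 3 kept a high level, 3422, 3093 and 2285 CPM in control, 2383 in UIR and 2426, 2107 and 2448 in UUO, which overlapped (UUO -0.43 ± 0.16, edgeR adjusted p = 0.168). Over all stroma *Adamts5* fell from 3292, 3066, 3062, 2296 and 1956 CPM to 601, 186 and 260 in UIR and 385, 625 and 915 in UUO (-2.84 ± 0.43 and -2.01 ± 0.41, edgeR adjusted p = 0.00131 and 0.00953, the UUO call lost without N1 and N2 and with a mitochondrial limit of 50%), beside the change of stromal subtypes given above. In endothelial cells the UUO pools held 71.2, 88.7 and 94.8 CPM against 24.1 to 61.8 in control, a separation that missed the threshold (1.04 ± 0.32, edgeR adjusted p = 0.0582). DESeq2 called UUO higher than control and than UIR (adjusted p = 0.0107 and 0.0478).

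**Figure D3:**
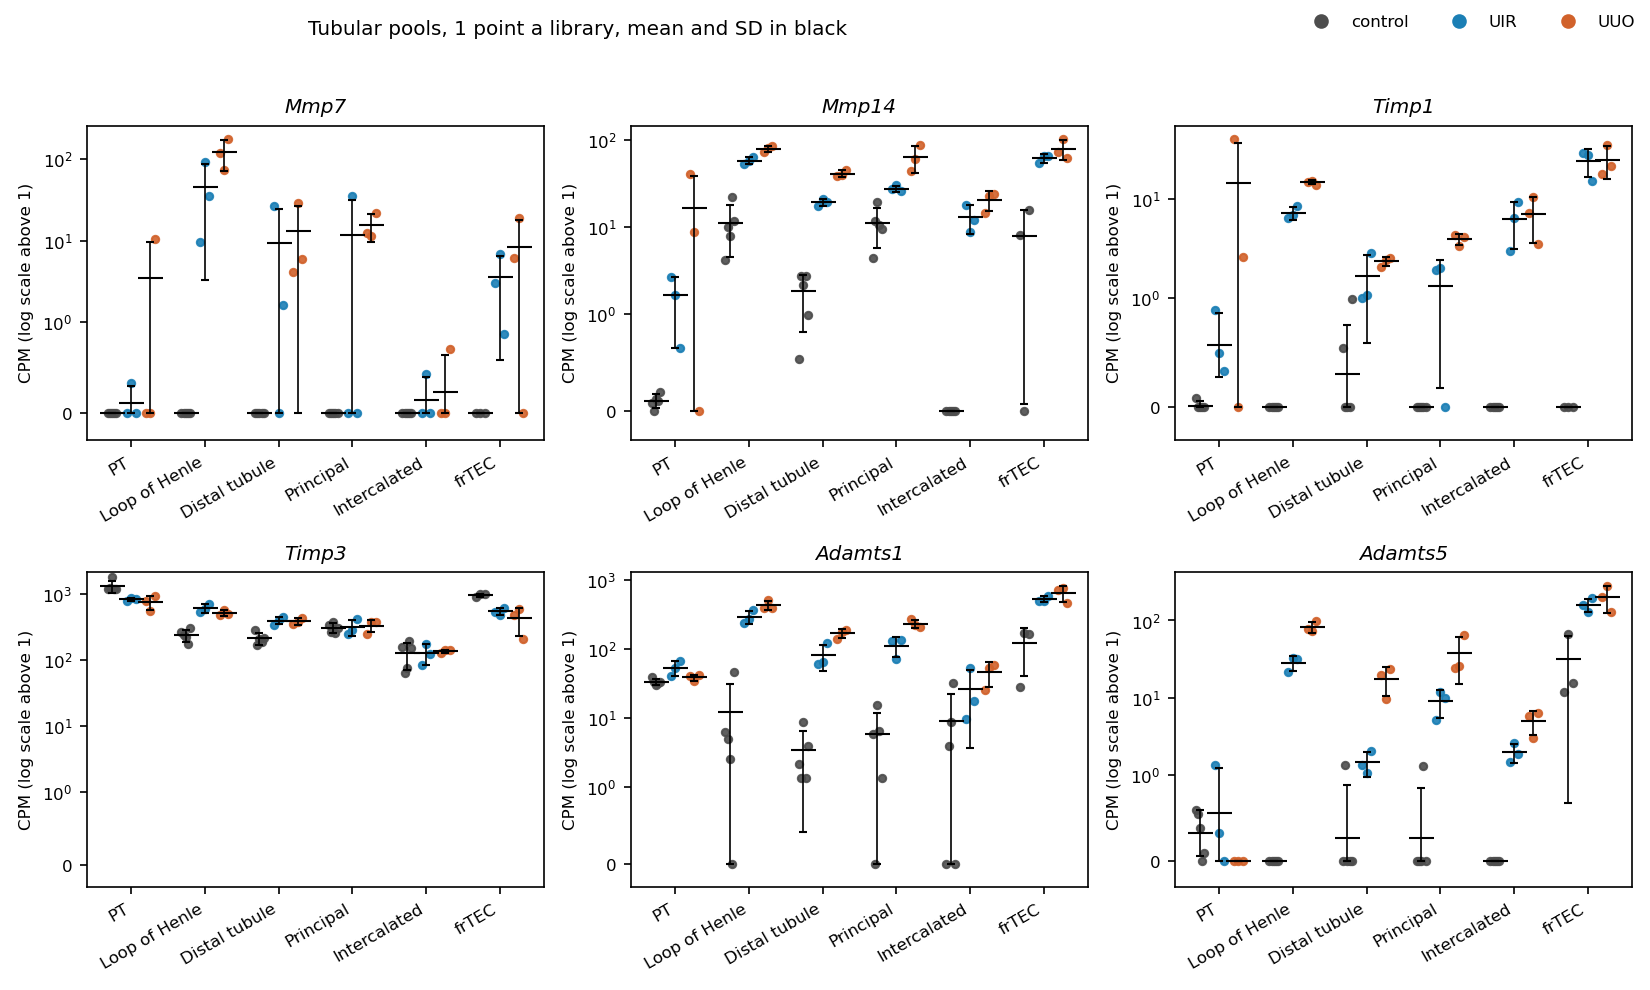
Members in tubular pools by library (CPM, axis linear to 1 and logarithmic above), with points for single libraries and bars for the mean and SD, the lower bar stopped at 0. In the loop of Henle, *Adamts5* and *Timp1* points of all 5 control libraries sit at 0 while every injured pool is above, and *Mmp14* groups do not overlap.

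*Timp1*, the injury-induced inhibitor, was nearly absent from control kidneys. Fibro 1 cells held 76.7% of its UMIs in UIR and 42.9% in UUO. Their pools had 1332, 599 and 498 CPM in UIR and 323, 379 and 236 in UUO. UIR pools were all higher, but UIR carried most of the difference and it was not called (UUO against UIR -1.37 ± 0.36, edgeR adjusted p = 0.269), whereas DESeq2 called it (adjusted p = 0.0223). The injuries filled Fibro 1 with different clusters: s3 held 35.9%, s5 29.6% and s1 25.9% of UIR cells, while s1 held 48.2%, s3 20%, s7 13.8%, s8 8.97% and s5 8.21% of UUO cells, with s7 and s8 empty in UIR. As untested means, *Timp1* was 1246 CPM in UIR and 660 in the only UUO pool of s5, whose leading genes include *Timp1* itself, 319 and 364 in s3 and 122 and 261 in s1 (*Bgn*, *Mgp*, *Dcn*). Over all stroma the level was 0, 0, 0, 0 and 8.70 CPM in control, 709, 362 and 241 in UIR and 211, 194 and 64.4 in UUO. This was 268 times (95% interval 48.1 to 10603) and 113 times (20.2 to 4455) control, from 1 control UMI (edgeR adjusted p = 0.00066 and 0.00661, the UUO call lost without AN2). Fibro 1 pools gave 2088 of the 2111 stromal UMIs in UIR and 709 of the 756 in UUO. Control stroma held 5 Fibro 1 cells, against 351 in UIR and 390 in UUO, so these ratios mix subtype and level. Fibro 3 had 0 UMIs in all 7 pools, control and injured alike, while Fibro 2 had 15.9, 14.6 and 6.21 CPM in UIR and 39.5, 36.1 and 19.8 in UUO.

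Epithelial *Timp1* was low. The loop of Henle held 0 in all 5 control libraries, 6.43, 6.93 and 8.47 CPM in UIR and 15, 15.5 and 14.1 in UUO. The injuries were apart by 1.03 ± 0.21 (edgeR adjusted p = 0.00409), a difference not called with a mitochondrial limit of 15% or at Leiden resolution 2 (0.27 at the lowest, edgeR adjusted p up to 0.971), and the level was at least 4.51-fold and 9.22-fold over the control floor (edgeR adjusted p = 0.000369 and 3.36e-06). Empty droplets averaged 7.68 CPM in UIR and 21.3 in UUO, and 2 of 3 UIR and 1 of 3 UUO loop pools were above their own. Per 100 UMIs of the 6 Fibro 1 markers the loop pools held 137 *Timp1* UMIs in each injury. frTEC pools had 0 in 3 control libraries, 29.5, 28.2 and 15.5 CPM in UIR and 18.2, 35.8 and 21.8 in UUO, at least 5.34-fold and 6.43-fold higher (edgeR adjusted p = 0.0277 and 0.0248). Both frTEC calls ended without Ctrl, N2 or AN2 and with predicted doublets kept, the UIR one also without UIR or UIR1, and the UUO one without UUO1.

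In endothelial cells *Timp1* was 0, 2.90, 0, 2.83 and 1.82 CPM in control, 8.38, 7.91 and 10.8 in UIR and 19.9, 13.3 and 8.16 in UUO. Injured pools were all higher, by 2.66 ± 0.61 and 3.23 ± 0.56 (edgeR adjusted p = 0.0178 and 0.000294, the UIR call lost without Ctrl or UIR2). No UUO endothelial pool exceeded its empty droplets. Macrophages had none in control, 1.5, 2.74 and 1.83 CPM in UIR and 17.0, 8.92 and 17.4 in UUO. UUO was apart from UIR by 2.64 ± 0.35 (edgeR adjusted p = 8.24e-06) and at least 5.74-fold over the control floor (edgeR adjusted p = 0.000775), while UIR was not called (edgeR adjusted p = 0.242). By cluster, the highest values were 163 CPM in the only UUO pool of i18 (*Retnla*, *Lyz1*, *Ear2*), against 6.23 in UIR, and a mean of 40.4 CPM in UUO in the *Arg1* cluster i11, against 2.26 in UIR, and 1 of 3 UUO pools was above its empty droplets.

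*Timp2*, the inhibitor that helps MMP14 activate pro-MMP2, was called higher in UIR in the loop of Henle, the distal tubule, intercalated and PT cells, and in UUO in the first 3 of these. PT pools held 0.77, 0.55, 1.54, 0.549 and 0.399 CPM in control and 3.57, 3.79 and 1.64 in UIR (2.07 ± 0.50, edgeR adjusted p = 0.00774), all far below their empty droplets, with 1, 4 and 0 UMIs in UUO, which DESeq2 called (adjusted p = 0.000111) and edgeR did not (adjusted p = 0.105). The PT call in UIR was lost without UIR1, and the distal UIR call with a mitochondrial limit of 15% and with free RNA subtracted. In the loop of Henle UUO exceeded UIR by 0.61 ± 0.16 (edgeR adjusted p = 0.0291), a call lost without UIR, UIR1, UIR2, UUO1 or UUO2, with a mitochondrial limit of 15%, with predicted doublets kept and at Leiden resolution 2. The distal tubule differed more: UUO pools of 56.9, 69.9 and 43.3 CPM against 9.76, 4.78 and 20.6 in UIR, separate by 2.17 ± 0.27 (edgeR adjusted p = 2.8e-05). That call was lost with a mitochondrial limit of 15% and with predicted doublets kept. No distal tubule pool of either injury exceeded its empty droplets, which averaged 56.4 CPM in UIR and 148 in UUO. Intercalated cells held 4.16, 0, 0, 8.69 and 5.62 CPM in control, 19.5, 32.9 and 15.9 in UIR and 23.2, 37.1 and 23.3 in UUO, again below empty droplets (2.09 ± 0.50 and 2.24 ± 0.50, edgeR adjusted p = 0.00418 and 0.00127, the UIR call lost with a mitochondrial limit of 50% and with 50 cells a pool). Summed macrophage markers in these intercalated pools were 0 to 13.1 CPM in control, 37.3 to 80.2 in UIR and 45.9 to 94.2 in UUO, and their part was not tested.

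Principal cells had *Timp2* at 104 to 184 CPM in control, 124, 110 and 166 in UIR and 173, 221 and 150 in UUO, all overlapping (-0.23 ± 0.18 and 0.21 ± 0.18). In frTECs it was 116, 293 and 133 CPM in control, 317, 315 and 450 in UIR and 422, 457 and 196 in UUO. UIR pools lay above control and UUO pools overlapped it, with neither called (edgeR adjusted p = 0.184 and 0.201). Fibro 3 pools stayed between 517 and 653 CPM in all groups, and macrophages between 271 and 422. Fibro 1 had 784, 693 and 708 CPM in UIR and 885, 908 and 1228 in UUO, apart but not called (0.46 ± 0.22), beside the different clusters given for *Timp1*. The mean of *Timp2* was 465 CPM in UIR and 595 in UUO in s1, 769 and 1010 in s3, and 1571 in the only pool of s8 (*Dcn*, *Col1a1*, *Lum*), a UUO one. Podocytes had 357 to 425 CPM in control, 574, 499 and 513 in UIR, with 581, 524 and 334 in UUO. The UIR podocyte pools were above every control pool without passing the test (0.42 ± 0.15, edgeR adjusted p = 0.34).

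*Timp3*, the matrix-bound inhibitor, moved in opposite directions among classes. Loop of Henle pools held 259, 236, 217, 171 and 299.8 CPM in control, 534, 583 and 705 in UIR and 474, 577 and 499 in UUO. All injured pools were higher (1.12 ± 0.15 and 0.88 ± 0.15, edgeR adjusted p = 3.27e-07 and 1.51e-05). The distal tubule rose less, from 286, 167, 204, 188 and 213 CPM to 340, 397 and 438 in UIR and 345, 376 and 429 in UUO (0.53 ± 0.13 and 0.42 ± 0.13, edgeR adjusted p = 0.00124 and 0.00906). The UUO call ended without UUO2, and the distal direction turned to -0.029 for UIR with a mitochondrial limit of 50% (with predicted doublets kept the UIR call was lost, at 0.32) and to -0.14 for UUO with predicted doublets kept. Principal cells (-0.04 ± 0.16 and 0.01 ± 0.16) and intercalated cells (-0.29 and -0.31, edgeR adjusted p = 0.624 and 0.545) were not called. Stroma rose from 633, 434, 462, 404 and 443 CPM to 846, 705 and 786 in UIR and 653, 754 and 655 in UUO (0.85 ± 0.16 and 0.62 ± 0.16, edgeR adjusted p = 0.000577 and 0.0116, the UUO call lost without UUO1 and both with a mitochondrial limit of 50%). This stromal difference mixes subtype and level. In Fibro 3 alone *Timp3* was not called in UUO (log2 0.26 ± 0.24, DESeq2 adjusted p = 0.736).

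PT cells went the other way, from 1170, 1226, 1788, 1177 and 1193 CPM in control to 785, 855 and 826 in UIR, with 777, 553 and 921 in UUO. The injured pools were all lower, by -0.64 ± 0.21 and -1.03 ± 0.24 (edgeR adjusted p = 0.0496 and 0.0104). The UIR call was at the threshold and was lost in turn without each library except Ctrl, UUO and UUO2, and the UUO call was lost without UUO1. Both ended with a mitochondrial limit of 50%, where the UIR difference was -0.23, and the UIR call also with a limit of 15% and with free RNA subtracted. By cluster, the mean in PT cells led by *Slc5a12* and *Slc5a2* (c16) was 2473 CPM in control and 1574 in UIR, against 602 and 512 in c6 and 170 and 229 in c19, and c16 held 12.3% of control, 6.22% of UIR and 3.67% of UUO PT cells. The frTECs held 896, 985 and 980 CPM in control, 536, 481 and 619 in UIR and 479, 584 and 207 in UUO. All injured pools were lower, with UUO called (-1.20 ± 0.29, edgeR adjusted p = 0.0341) and UIR not (-0.81 ± 0.29, edgeR adjusted p = 0.128). The UUO call ended without Ctrl, N2, AN2, UUO or any of the 3 UIR libraries. Cluster t16 held 49 of the 89 control frTECs, 65 of 730 in UIR and 15 of 238 in UUO, so the frTEC difference mixes cluster share and level. Over all groups *Timp3* stood at 868 CPM in t16 and 881 in t11, and the UIR mean of t16 is given with *Adamts1*. Endothelial pools, which had the highest mean of *Timp3* in each group but overlapped podocytes in control and UUO, held 3717, 2623, 1979, 3092 and 2701 CPM in control, 1963, 2343 and 2921 in UIR and 1335, 1703 and 1575 in UUO. UIR overlapped control (-0.27 ± 0.16) and UUO lay below both, by -0.97 ± 0.17 against control and -0.70 ± 0.18 against UIR (edgeR adjusted p = 0.00034 and 0.0375). The difference between injuries was not called without N1, AN2, UIR1, UIR2 or any UUO library, with a mitochondrial limit of 15% or with free RNA subtracted.

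The endothelial clusters had unequal shares in the groups and unequal *Timp3*. In *Sox17* cells (c15), 28.1% of control, 21.2% of UIR and 15.6% of UUO endothelial cells, *Timp3* was 4750 CPM in control, 4391 in UIR and 3363 in UUO, in cells led by *Ehd3* and *Kdr* (c8) 1638, 1400.0 and 1157, and in *Plvap* cells (c9) 1778, 1241 and 753. In *Ccl21a* cells (c13), 4.78% of control, 25.2% of UIR and 22.5% of UUO endothelial cells, it was 1960 CPM in the only control pool, 727 in UIR and 798 in UUO. In macrophages *Timp3* was 54.4, 35.2, 96.0, 22.6 and 34.3 CPM in control, 50.9, 40.5 and 22.7 in UIR and 20.5, 10.0 and 8.77 in UUO, below every control pool but not called by edgeR (-1.95 ± 0.57, adjusted p = 0.0608) and under the level of empty droplets (mean 265 CPM). DESeq2 called UUO lower than control and than UIR (adjusted p = 0.000137 and 0.0115). Podocytes held 1652 to 2149 CPM in control, 1418 to 1626 in UIR and 456, 2024 and 1375 in UUO.

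A wider list of 61 matrix proteolysis genes outside the members (other MMPs, ADAM and ADAMTS proteases, cathepsins, serine proteases and serpins) was also read, and the share of all genes called in the same comparison is given in brackets. In the loop of Henle 13 of 30 tested genes were higher and 4 lower in UIR (31.4% of all genes), and 15 and 4 in UUO (36.4%). Cathepsin L (*Ctsl*) went from 128 CPM in control to 645 in UIR (log2 2.11 ± 0.16, edgeR adjusted p = 3.61e-12). In the distal tubule 13 of 21 were higher and 3 lower in UIR (33.1% of all genes), and 14 and 4 in UUO (41.1%), among them *Mmp15*, another membrane-type enzyme, at 0.417 CPM in control and 22.2 in UUO (log2 5.19 ± 0.58, edgeR adjusted p = 1.97e-09). Principal cells had 9 of 24 higher and 1 lower in UIR (15.5%) and 16 and 1 in UUO (33.4%), intercalated cells 4 of 17 higher and 1 lower in UIR (13.4%) and 4 and 3 in UUO (22.5%). In frTECs 1 of 28 was higher in UIR (5.65%) and 2 in UUO (5.91%), shares near those of all genes. PT cells had 7 of 23 higher in UIR (8.09%) and 3 in UUO (2.26%), endothelial cells 3 of 40 higher and 1 lower in UIR (1.95%) and 13 and 5 in UUO (11.8%), and stroma 10 of 39 higher and 5 lower in UIR (17.0%) and 13 and 4 in UUO (14.7%). Stromal cathepsin K (*Ctsk*) rose from 15.1 CPM to 129 in UIR and 165 in UUO (log2 3.33 ± 0.54 and 3.64 ± 0.53, edgeR adjusted p = 0.000702 and 0.000489). That stromal difference also mixes subtype and level. Macrophages had 6 of 22 higher and 3 lower in each injury (6.91% and 11.5%), with collagenase-3 (*Mmp13*) falling from 181 CPM to 8.96 in UIR (log2 -4.37 ± 0.28, edgeR adjusted p = 1.16e-08). *Mmp13* was among the leading genes of macrophage cluster i10, which held 58.2% of control and 3.74% of UIR macrophages, so this difference mixes cluster share and level.

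Across 44 class and group means and 12402 genes, each member's most similar gene was ranked by Pearson correlation of log2 levels. This is a description of pools that share libraries. *Timp3* was most like *Syn3* (0.97), the gene on the opposite strand around it, 1 of whose 24 annotated exons lies over *Timp3* exons. *Syn3* stood at 3.36 to 6.11 UMIs per 100 *Timp3* UMIs in PT, loop of Henle, distal tubule, principal, frTEC and endothelial pools of all 3 groups, and at up to 7.86 in UUO podocytes and 11.3 in UUO intercalated cells, and the likeness is uncertain, since the counting of reads over the shared exon was not tested. *Mmp2* was most like *Bgn* (0.92), *Mmp3* like *Col8a2* (0.93), *Mmp7* like *Il1f6* (0.86), *Mmp9* like *Il4* (0.85) and *Mmp14* like *Fblim1* (0.87). *Timp1* was most like *Ltbp2* (0.84), *Timp2* like *Ilk* (0.83), *Adamts1* like the basement membrane collagen *Col4a1* (0.87) and *Adamts5* like *Casp12* (0.92). Among members the most alike pair was *Adamts1* and *Adamts5* (0.81).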

How the data were processed

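UMI counts per gene and barcode were used as deposited, raw and unfiltered, made by the authors with Cell Ranger 3.1.0 per the processing notes (the study's methods name another version) on mm10. The study also removed free RNA and doublets, and the deposited counts are from before those steps. Cells were called against each library's empty droplets (at least 500 UMIs, FDR 0.01), with at most 30% mitochondrial and 5% hemoglobin UMIs, at least 200 genes and the top 7.5% of doublet scores removed. They were clustered (2000 variable genes, 40 components, Leiden resolution 1, leidenalg 0.10.2) without the members and the wider list, and clusters were named from fixed markers by a naming rule that was revised after cluster marker tables were seen.

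UMIs were summed per library and class (20 cells or more) and tested with edgeR 4.0.16 (R 4.3.3), all 3 groups in 1 fit, Benjamini-Hochberg over all genes of the class. DESeq2 1.42.0 was an alternative. The steps were tested on simulated data. Named genes were all 10 members, up to 3 called genes per class and comparison of the wider list (largest change, at least 20 CPM), with some of these named here, and the genes most correlated with each member. Members and lists were chosen with earlier results of these data known. Fold bounds use a floor of 3 counts over the control group, and ratios have exact 95% intervals.

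Batches are given for the controls alone, so a batch of the injured libraries cannot be told apart from the injury. Depth was 49503312 to 117043590 UMIs a library.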

Additional observations from a re-analysis of the deposited data

Results flagged for a closer look

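In 9 of 34 control groups of 5 pools, 1 library stood apart by Dixon's gap criterion, whose nominal rate is 5% for independent, normal values. These groups reuse the same 5 libraries and some rest on few UMIs, so the number cannot be set against that rate. Library AN2 was low for endothelial *Mmp2* (1.82 CPM, the others 9.92 to 13.0) and high for stromal *Mmp2* (217 CPM, the others 100.3 to 111) and loop of Henle *Adamts1* (47.2 CPM, the others 0 to 6.31). Library Ctrl was high for macrophage *Mmp14* (43.5 CPM, the others 5.64 to 12.5), stromal *Timp2* (963 CPM, the others 543 to 661) and stromal *Timp3* (633 CPM, the others 404 to 462). Library N2 was high for T/NK *Timp2* (52.1 CPM, the others 8.70 to 19.5) and PT *Timp3* (1788 CPM, the others 1170 to 1226), and AN1 for intercalated *Adamts1* (32.6 CPM, the others 0 to 8.72).

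The same contrast went in opposite directions in pairs of classes, which were picked for their opposite calls, so the difference itself was not tested. For *Timp3* in UIR, the difference from control on the log2(CPM + 1) scale was 2.02 larger in the loop of Henle than in PT cells, and in UUO it was 1.99 larger in the loop of Henle than in endothelial cells. For *Adamts1* in UUO the distal tubule exceeded Fibro 3 by 6.87.

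Cells whose cluster matched no named class entered no comparison and also held members above every control library. *Mmp2* averaged 53.6 CPM in UIR (21.1 to 79.7) and 39.4 in UUO (5.86 to 77.0), with 0 in control, and *Mmp7* 26.3 CPM in UUO (7.11 to 58.6), also with 0 in control. *Mmp14* averaged 33.9 CPM in UIR and 59.2 in UUO, and *Timp1* 25.1 in UUO, with at most 2.44 in a control library. *Timp2* averaged 199 CPM in each injury (control at most 10.9), *Adamts1* 106 in UIR and 146 in UUO (control at most 19.5), and *Adamts5* 43.3 and 41.7 (control at most 2.44).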

How the results depend on the processing

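Of the 81 called member and class pairs, 46 kept direction and call under every one of the 26 alternatives that could be run for them, 35 lost the call under at least 1 and 3 also changed sign (17 of 32 kept for UIR, 25 of 35 for UUO and 4 of 14 between injuries). With a mitochondrial limit of 15%, which left 30 of the called pairs to test, there were 6 calls for UIR and 9 for UUO, and with 50 cells a pool 18 and 21. Without the low-count filter 27 were called between UUO and UIR. Leaving out 1 library gave 26 to 33 calls in UIR, 30 to 37 in UUO and 9 to 18 between injuries, the 9 without UUO1. Without AN1 and AN2 the counts were 23, 28 and 12, and without N1 and N2 27, 30 and 14. DESeq2 gave 35, 41 and 18, and subtracting free RNA 30, 36 and 12. The labels give libraries of the 2 injuries a shared number but no pairing, and the numbers were not taken as pairs. Deviations of same-numbered libraries from their group means correlated at 0.02 to 0.79 over 6 classes, 3 of 18 values were at or under 0.1, and library UIR correlated best with UUO in 6 of 6 classes, UIR1 with UUO1 in 3 and UIR2 with UUO2 in 1, with UUO1 in the other 5. With the replicate block 18 pairs were called between injuries: *Mmp14* in the loop of Henle (0.45) and macrophages (0.52), *Timp1* in stroma (-1.56) and *Timp3* in macrophages (-1.65) and cDC1 (-1.70) were gained, *Timp2* in the distal tubule was not called (2.20, edgeR adjusted p = 0.177), and no other call changed. Direction reversed for *Timp3* in the distal tubule in UIR with a mitochondrial limit of 50% (-0.029) and in UUO with predicted doublets kept (-0.14), and for *Adamts1* in the distal tubule between injuries with doublets kept (-0.12), and the cause was not tested. Mean shares of UMIs by class, for classes holding at least 20% of a member's UMIs, moved by more than 1 SD between libraries in 35 recomputed values and by no more than that in 73. Depth limits the PT pools of UUO (23, 29 and 57 cells) and all genes with 0 to 3 control counts.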
